A study of Mus musculus with 8 samples.

Results

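The mitochondrial ribosomal protein genes form a family of small nuclear genes whose symbols begin with Mrpl, for the large subunit of the mitochondrial ribosome, or Mrps, for the small subunit. They were taken as every gene on the array with such a symbol and at least 1 probe detected (detection p under 0.05) on 4 or more of the 8 arrays. This gave 66 genes, 39 of the large and 27 of the small subunit, out of 72 genes with such a symbol on the array and out of 10008 detected genes of 18138 in all. They were read by 93 detected probes, 55 for the large and 38 for the small subunit, out of 105. For each gene 1 probe stands in the counts below, the detected probe with the highest mean, and for all 66 genes that probe was detected on all 8 arrays.

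The study compared striatum, the input nucleus of the basal ganglia, between mice that lack PGC-1α and wild-type mice. PGC-1α is a transcriptional coactivator encoded by Ppargc1a. There were 4 arrays of PGC-1α null mice at postnatal day 30 and 4 arrays of PGC-1α wild-type mice of the same age, all on a C57BL/6 background and with no treatment named. RNA of striatal tissue was hybridised to Illumina bead arrays. The labels give the cell type as medium spiny neurons, which are the striatal projection neurons, yet the RNA came from whole striatal tissue and held transcripts of every cell type there. A deletion limited to these neurons is named in the series title and plain null mice in the sample labels, so which cells lacked the gene remained unclear.

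The mitochondrial ribosome translates the few messages of the mitochondrial genome, which encode core subunits of the respiratory chain and of ATP synthase. Its RNAs are transcribed in the mitochondrion, while all of its proteins are encoded in the nucleus, made in the cytosol and imported. Some of these proteins have counterparts in bacterial ribosomes and others are found only in mitochondria. PGC-1α is known to act with the transcription factors NRF1, GABP (an ETS family factor), YY1 and ERRα, whose targets include nuclear genes for mitochondrial proteins.

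Promoter windows, from 250 bases before to 50 after each annotated start, were read from RefSeq on build GRCm38.p6 for 59 of the 66 genes, which lay on 15 chromosomes. A search of both strands found the ETS motif CCGGAAGT in 12 of the 59 genes (20.3%), against 9.0% of 7602 detected genes and 5.7% of 17492 protein-coding genes with a window. The YY1 motif AAGATGGC was in 10 of 59 (16.9%), against 5.4% of detected and 3.6% of all genes. The palindromic core of the NRF1 motif was in 2 of 59 (3.4%), in Mrpl39 and Mrpl9, against 2.1% and 1.5%. The ERR motif AAGGTCA was in 4 of 59 (6.8%), in Mrpl12, Mrpl36, Mrps15 and Mrps21, against 4.0% and 4.7%. None of these motifs holds another within its letters. A match is a description of the letters and does not show that a factor binds there.

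The bases before the start are shown for the gene with the largest difference between the groups (Mrps31, in which no searched motif was found), for 1 gene with each of 3 motifs, and for the stretch between a large and a small subunit gene that start back to back. Each is written 5′ to 3′ along the strand of the gene, with a searched motif in capitals.
Mrps31 (chr8:22411090-22411339, plus strand): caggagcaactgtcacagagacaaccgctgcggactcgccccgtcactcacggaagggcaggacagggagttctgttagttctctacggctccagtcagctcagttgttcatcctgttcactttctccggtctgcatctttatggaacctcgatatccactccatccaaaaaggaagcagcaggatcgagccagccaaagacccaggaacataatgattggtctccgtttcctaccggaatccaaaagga
Mrps15 (chr4:126046678-126046927, plus strand): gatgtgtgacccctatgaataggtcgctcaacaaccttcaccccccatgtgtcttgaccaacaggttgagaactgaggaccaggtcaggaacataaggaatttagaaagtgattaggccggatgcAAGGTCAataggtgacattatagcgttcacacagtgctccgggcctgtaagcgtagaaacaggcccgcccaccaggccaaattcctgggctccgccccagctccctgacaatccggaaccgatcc
Mrps22 (chr9:98601680-98601929, minus strand): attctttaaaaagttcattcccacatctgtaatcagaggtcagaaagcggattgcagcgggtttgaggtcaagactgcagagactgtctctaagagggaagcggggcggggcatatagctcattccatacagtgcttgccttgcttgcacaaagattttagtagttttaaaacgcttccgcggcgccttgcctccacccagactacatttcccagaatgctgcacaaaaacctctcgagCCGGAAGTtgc
Mrpl39 (chr16:84735245-84735494, minus strand): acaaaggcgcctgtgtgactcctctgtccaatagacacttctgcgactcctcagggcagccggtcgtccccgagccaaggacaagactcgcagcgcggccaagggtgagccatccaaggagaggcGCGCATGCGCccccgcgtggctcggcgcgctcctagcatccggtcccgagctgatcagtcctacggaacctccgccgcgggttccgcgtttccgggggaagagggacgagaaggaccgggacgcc
Mrps11 (chr7:78783090-78783130, plus strand): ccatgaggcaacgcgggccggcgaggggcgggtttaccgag
The capitals mark the ERR motif in Mrps15, with its first base at position -125 relative to the gene's start, the ETS motif in Mrps22, at -11, and the NRF1 core in Mrpl39, at -125. The last line holds all 41 bases between the starts of Mrps11, a small subunit gene, and Mrpl46, a large subunit gene transcribed the other way.

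Such divergent pairs, with another gene's start within 1000 bases on the opposite strand, were found for 20 of the 59 genes (33.9%), against 12.8% of detected genes and 8.5% of all genes with a window. Mrpl46 and Mrps11 were each other's partner, with starts 42 bases apart. Some other partners, picked here for that reason, also act in mitochondria. Further partners included Fau, Hira, Klc4, Tcp1, Gga3, Tmem63b, Zfp189 and Ppp1r10, and the share that act in mitochondria was not counted. Mrps12 faced Sars2, the mitochondrial seryl-tRNA synthetase, at 147 bases. Mrpl43 faced Twnk, the helicase of mitochondrial DNA replication, at 116 bases, and Mrpl47 faced Ndufb5, a subunit of respiratory complex I, at 308 bases.

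The first question was whether the transcripts of the mitochondrial ribosome differed in the null striatum. In a limma fit over all 13413 detected probes, 0 of the 66 genes passed an adjusted p of 0.05, and 0 of 10008 genes did so over the whole array (0.0%). At an unadjusted p under 0.05 the count was also 0 of 66, where 697 of all detected genes (6.96%) lay under that value. The null and wild-type arrays overlapped for each of the 66 genes, while they did not overlap for 425 of all detected genes (4.25%). In bulk tissue, fewer cells of a type and less RNA per cell cannot be told apart.

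The mean was higher in null for 38 of the 66 genes (57.6%), against 48.5% of all detected genes, and lower for 28 (background 51.5%). The median difference, null minus wild-type on the log2 scale, was 0.04, against -0.01 over all genes. Without wild-type 4 the median was -0.007 and 32 of the 66 genes had a higher mean in null. Single genes differed by -0.27 (Mrps31, a fold of 0.832 in null over wild-type) to 0.20 (Mrps24, a fold of 1.15). A difference of 1.2-fold or more either way was found for 1 gene, Mrps31, where 14.9% of all genes differed that much. The median size of the difference, without its sign, was 0.08 for these genes and 0.12 over all genes. Their standard errors (SE) were also smaller, with a median of 0.13 against 0.15.

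The intervals give the precision of the 1 probe taken for each gene, each gene on its own. They rest on the spread between these 8 samples, which the labels do not tie to different mice, so they do not bound a difference between mice. The 95% interval of the difference lay within 1.5-fold either way for 64 of the 66 genes, all 39 of the large and 25 of the 27 of the small subunit. The exceptions were Mrps2, with a lower end at -0.63, and Mrps27, with an upper end at 0.60 (log2). For all 66 genes the interval lay within 2-fold. The share of all detected genes with such intervals was not counted. Over all detected probes the median interval reached 0.322 to either side, where 1.5-fold is 0.585 (log2). These counts are therefore not read as particular to the family.

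**Figure D1:**
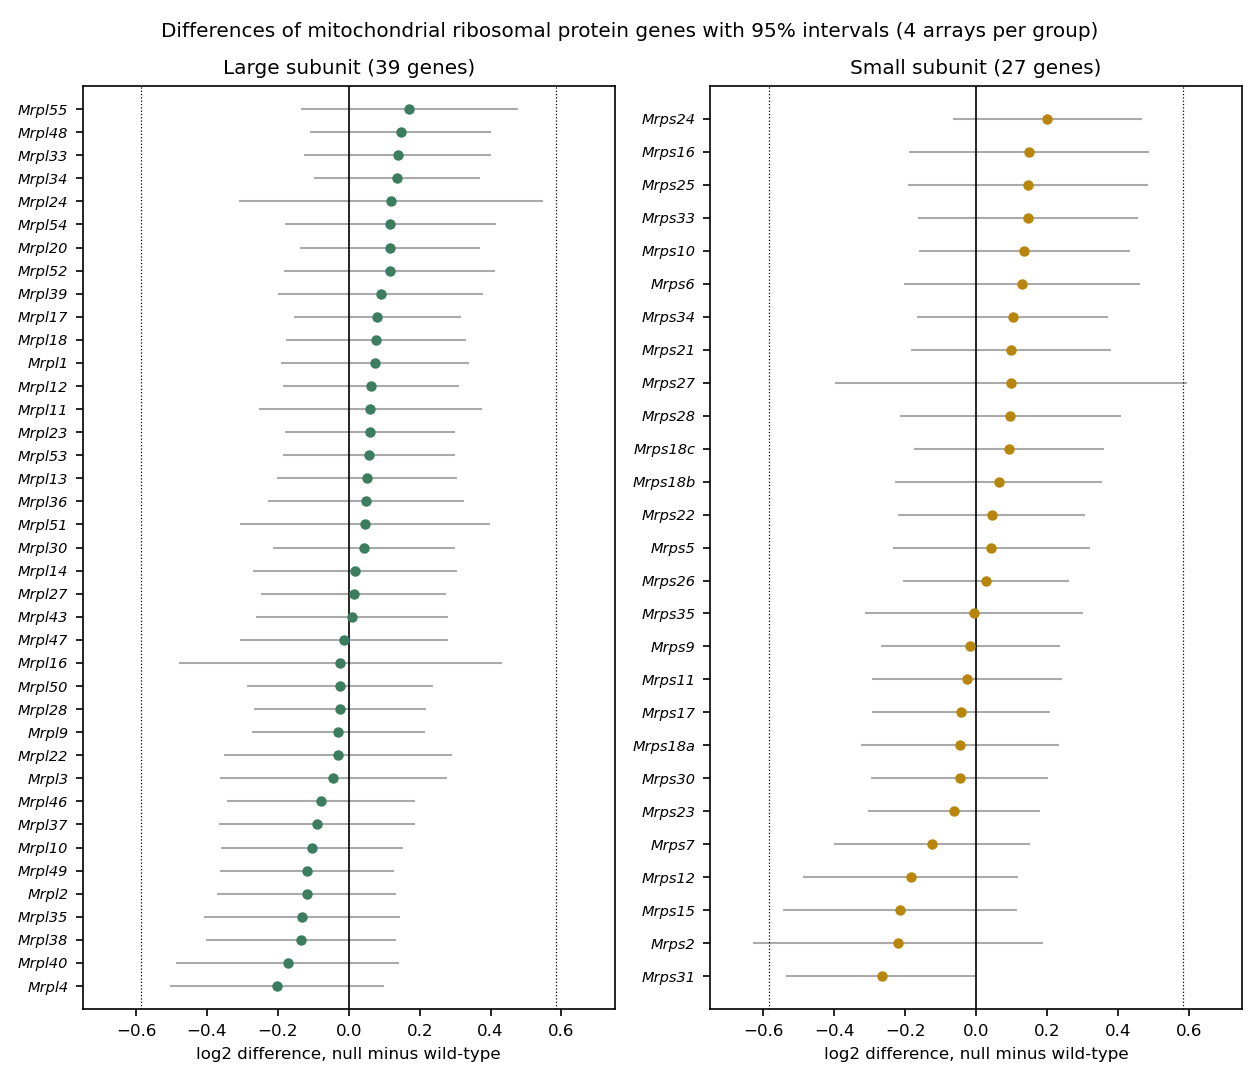
Difference between null and wild-type (log2, x axis) for each of the 66 genes, with its 95% interval as a bar, split into the 39 large and 27 small subunit genes. Points lie between -0.27 (Mrps31) and 0.20 (Mrps24), and the intervals of all the genes include 0.

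The large and small subunits, which are needed in equal number, were then set side by side. The median difference was 0.04 in each, over 39 large subunit genes with 23 means higher and 16 lower in null, and over 27 small subunit genes with 15 higher and 12 lower. Without wild-type 4 the median was -0.02 in the large and 0.007 in the small subunit, and without wild-type 1 it was 0.074 and 0.049. The spread between arrays of a group was of like size, with a median residual SD of 0.13 for the large and 0.15 for the small subunit. Single differences reached from -0.20 to 0.17 in the large and from -0.27 to 0.20 in the small subunit.

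Gene symbols do not follow the assembled ribosome in every case. Mrps18a and Mrps30 carry the name of the small subunit, but their proteins sit in the large one, and their differences were both -0.05 (SE 0.13 for Mrps18a and 0.11 for Mrps30). Counted by structure, the 41 large subunit genes had a median of 0.02 and the 25 small subunit genes a median of 0.04. Mrps36 was not analysed here. The 41 genes with a bacterial counterpart had a median of 0.04, with 24 higher and 17 lower in null. The 25 found only in mitochondria had a median of 0.03, with 14 higher and 11 lower.

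Among large subunit genes, the smallest p-value belonged to Mrpl4, whose protein lines the exit tunnel through which the new chain leaves. Mrpl4 had log2 intensities of 8.31, 7.94, 7.71 and 7.85 on the null arrays, against 8.18, 8.10, 8.18 and 8.15 on the wild-type arrays. All but 1 null array lay below the narrow wild-type range, and null 1 lay above it. The difference was -0.20 (SE 0.14, limma adjusted p = 0.784).

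Mrpl34, a small protein of the large subunit with a bacterial counterpart, had the narrowest spread of all 66 genes, a residual SD of 0.07. It read 8.81, 8.83, 8.69 and 8.81 in null and 8.72, 8.56, 8.61 and 8.68 in wild-type striatum. The groups overlapped only through null 3, which lay below wild-type 1, and the difference was 0.14 (SE 0.11, limma adjusted p = 0.807).

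Mrpl48 belongs to the central protuberance, the crown of the large subunit that faces the small one. Its values were 9.80, 9.65, 9.55 and 9.59 in null and 9.37, 9.47, 9.63 and 9.54 in wild-type striatum, a difference of 0.15 (SE 0.12). Mrpl40 and Mrpl38, of the same structure, differed the other way, by -0.17 (SE 0.14) and -0.13 (SE 0.12). Mrpl40 read 8.98, 8.79, 8.56 and 8.38 in null and 8.94, 8.93, 8.76 and 8.77 in wild-type striatum, so that null 1 lay above all wild-type arrays and null 3 and 4 below them. The estimates for these neighbours in 1 structure did not share a sign. Each was little larger than its SE, with limma adjusted p of 0.810 (Mrpl48), 0.822 (Mrpl40) and 0.837 (Mrpl38). The signs are therefore not established, and whether these genes differ from each other was not tested. Over 5 genes assigned here to the central protuberance (Mrpl18, Mrpl38, Mrpl40, Mrpl46 and Mrpl48) the median was -0.08, with 2 higher and 3 lower. Places within the ribosome were assigned from general knowledge, and the genes given for a place need not be all of those measured.

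The remaining large subunit genes with small p-values were Mrpl55, at 0.17 (SE 0.14), and Mrpl33, at 0.14 (SE 0.12), both proteins with bacterial counterparts. Mrpl55 read 7.85, 8.11, 7.94 and 7.61 in null and 7.89, 7.78, 7.49 and 7.67 in wild-type striatum. Mrpl33 read 11.48, 11.27, 11.55 and 11.49 in null and 11.15, 11.24, 11.42 and 11.42 in wild-type striatum. The groups overlapped in both genes. Around the peptidyl transferase centre, where peptide bonds form, Mrpl2, Mrpl3, Mrpl16 and Mrpl27 had a median of -0.03, with 1 higher and 3 lower. Along the exit tunnel, Mrpl4, Mrpl17, Mrpl22, Mrpl23 and Mrpl24 had a median of 0.06, with 3 higher and 2 lower. At the stalk, which recruits translation factors, Mrpl10 differed by -0.10 and Mrpl11 and Mrpl12 by 0.06 each.

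The largest difference of the family was in the small subunit. Mrps31, a protein found only in mitochondrial ribosomes, had log2 intensities of 9.76, 9.57, 9.44 and 9.40 in null and 9.88, 9.85, 9.86 and 9.65 in wild-type striatum. The groups overlapped only because null 1 lay above wild-type 4. The difference was -0.27 (SE 0.12, unadjusted p = 0.0523, limma adjusted p = 0.719). A pair of further probes for Mrps31 differed by -0.28 (SE 0.15) and -0.29 (SE 0.14), so the 3 probes gave nearly the same size. They read the same RNA samples and are not independent of each other.

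Mrps24, which lies where the message enters the small subunit, had the largest difference in the other direction. It read 12.03, 11.77, 12.03 and 12.06 in null and 11.79, 11.71, 11.64 and 11.94 in wild-type striatum. Null 2 lay within the wild-type range and the other null arrays above it, with a difference of 0.20 (SE 0.12, limma adjusted p = 0.762).

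Mrps12 belongs to the decoding centre, where codon and tRNA are matched. Its values were 10.51, 9.99, 10.12 and 10.43 in null and 10.54, 10.49, 10.41 and 10.35 in wild-type striatum, a difference of -0.18 (SE 0.14). Null 2 and 3 lay below all wild-type arrays and the other null arrays among them. Mrps2, also with a bacterial counterpart, differed by -0.22 (SE 0.19), and read 6.56, 6.87, 6.08 and 6.38 in null and 6.75, 6.87, 6.89 and 6.27 in wild-type striatum. With Mrps5 (0.04) and Mrps24, the 4 genes assigned here to the decoding centre and the path of the message had a median of -0.07, 2 higher and 2 lower.

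Mrps15, whose bacterial counterpart binds the ribosomal RNA early in assembly, read 7.47, 7.42, 6.94 and 7.35 in null and 7.78, 7.36, 7.54 and 7.36 in wild-type striatum. Null 3 was the lowest of the 8 arrays, and the difference was -0.22 (SE 0.15). Mrps33, found only in mitochondria, differed by 0.15 (SE 0.14), with values of 12.06, 11.93, 12.29 and 11.70 in null and 11.99, 11.73, 11.93 and 11.75 in wild-type striatum. Mrps10, of the head of the small subunit, differed by 0.14 (SE 0.14), with values of 7.66, 7.73, 7.65 and 7.49 in null and 7.81, 7.28, 7.51 and 7.38 in wild-type striatum. In each of these genes the groups overlapped. Over all 66 genes the limma adjusted p ran from 0.719 to 0.995.

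**Figure D2:**
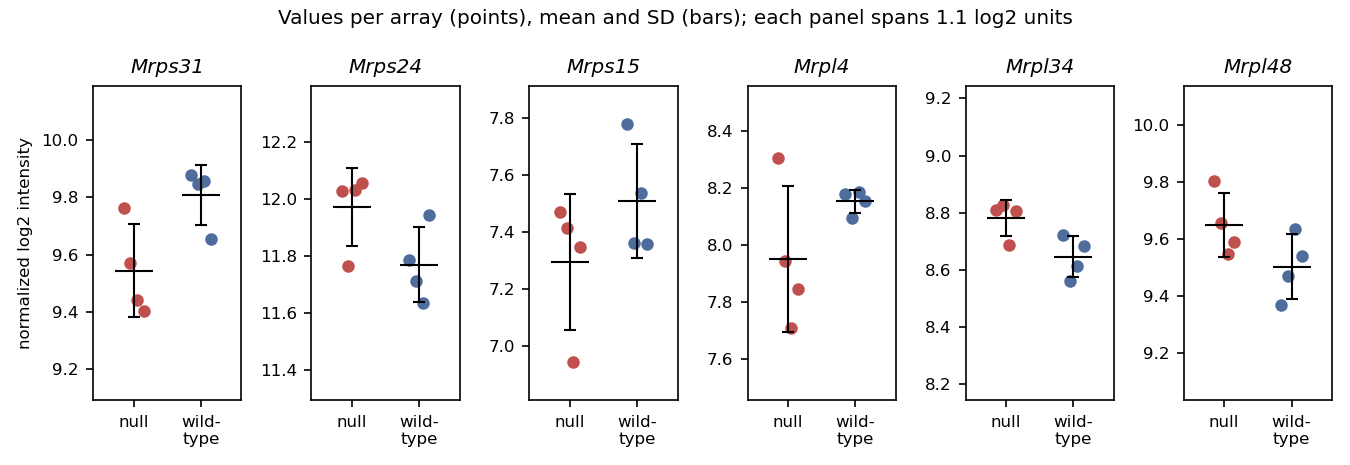
Normalized log2 intensity of 6 genes on each array, null left and wild-type right, with the mean as a horizontal line and the SD as a bar (n = 4 each). Mrps31 had means of 9.54 in null and 9.81 in wild-type, and Mrps24 of 11.97 in null and 11.77 in wild-type; in every panel at least 1 array of a group lies in the range of the other group.

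The genes with the widest spread between arrays of 1 group were Mrps27, Mrpl16, Mrpl24 and Mrps2, with residual SDs of 0.40, 0.36, 0.33 and 0.31. Mrps27, an RNA-binding protein of the small subunit, read 5.43, 6.38, 5.19 and 5.61 in null and 5.85, 5.63, 5.26 and 5.48 in wild-type striatum, so that null 2 stood above the other 7 arrays. Mrpl16, near the peptidyl transferase centre, read 7.67, 7.92, 7.94 and 7.55 in null and 8.21, 7.72, 8.09 and 7.16 in wild-type striatum. Here the wild-type group held both the highest and the lowest array. Mrpl24, of the exit tunnel, read 8.43, 8.51, 8.07 and 7.63 in null and 8.29, 8.02, 8.13 and 7.72 in wild-type striatum. Its array 4 was the lowest of each group. The 3 genes differed by 0.10 (SE 0.23), -0.02 (SE 0.21) and 0.12 (SE 0.20).

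For 20 of the genes more than 1 probe was detected, which shows how far a difference depends on the probe. The probes of a gene had the same sign for 12 genes and opposite signs for 8 (Mrpl1, Mrpl43, Mrpl49, Mrpl51, Mrps10, Mrps11, Mrps18b and Mrps25). The median distance between the lowest and the highest difference of a gene's probes was 0.09. It was largest for Mrpl51, at 1.00, where the brightest probe differed by 0.05, another by -0.48 (SE 0.16) and the last by 0.52 (SE 0.25). The probe at -0.48 was detected on 2 null and 4 wild-type arrays, and the probe at 0.52 on 3 null arrays and 1 wild-type array. Each passed the detection rule mainly through the group in which it was higher, so its difference is given as a description only.

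In the other genes with opposite signs the probes lay closer. Those of Mrpl1 differed by 0.07 and -0.16, of Mrpl43 by 0.01 and -0.07, and of Mrpl49 by -0.12, -0.02, 0.10 and -0.27. Those of Mrps11 differed by -0.03 and 0.17, of Mrps18b by 0.06 and -0.04, and of Mrps25 by 0.15, -0.03 and 0.27. Probes of 1 gene also parted for Mrps10. Its brightest probe differed by 0.14, another by 0.32 (SE 0.14, unadjusted p = 0.0445, limma adjusted p = 0.709) and the dimmest, detected on 2 null and 2 wild-type arrays, by -0.12 (SE 0.18). Of the 93 probes, 3 had an unadjusted p under 0.05 (3.23%), those of Mrpl51 and Mrps10 just given and a weaker probe of Mrpl47 at -0.32 (SE 0.15), where the share over all 13413 probes was 6.9%. The brightest probe of Mrpl47 differed by -0.01. Which transcripts each probe reads was not tested.

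**Figure D3:**
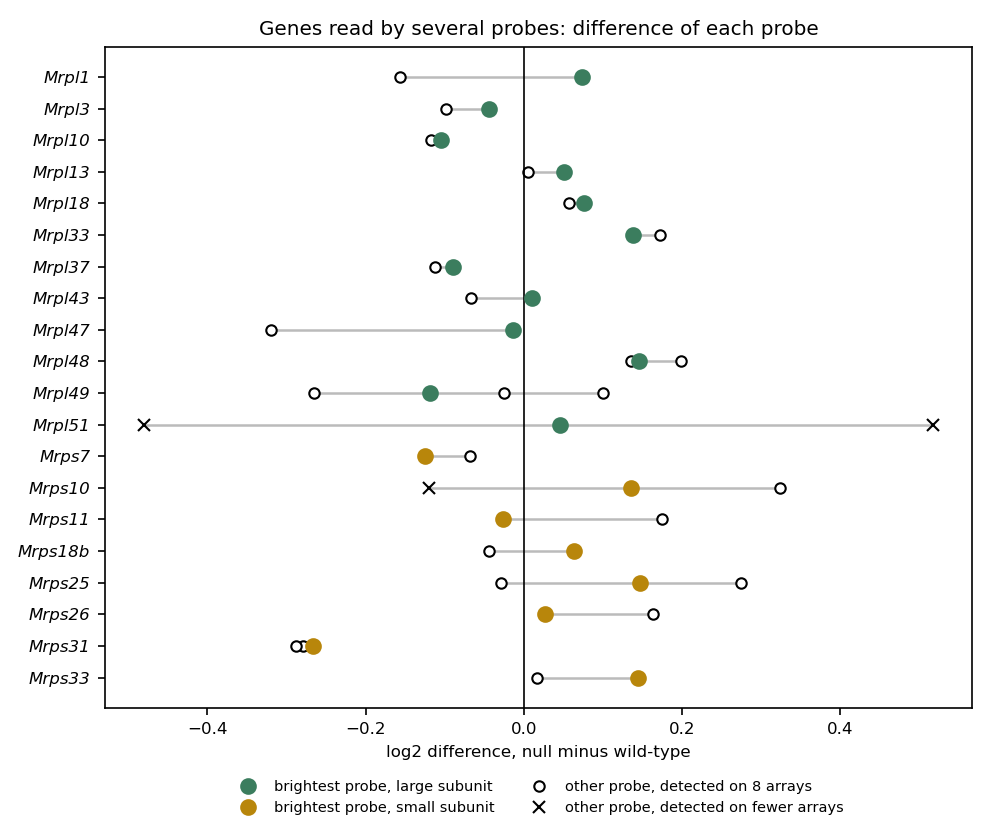
Difference between null and wild-type (log2, x axis) of every detected probe for the 20 genes with more than 1, with the brightest probe filled, other probes open and probes detected on fewer than 8 arrays as crosses. The 3 probes of Mrps31 lie together between -0.29 and -0.27, while those of Mrpl51 spread from -0.48 to 0.52.

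Of the 72 genes, 6 were not detected on enough arrays, namely Mrpl15, Mrpl19, Mrpl21, Mrpl32, Mrpl45 and Mrps14. Mrpl15 came nearest, with detection on 0 null arrays and 3 wild-type arrays, and log2 values of 4.65, 4.72, 4.77 and 4.79 in null and 4.99, 4.50, 5.07 and 5.13 in wild-type striatum. These values lie at the background of the arrays, so they set no level. The probes of Mrpl45 were detected on 0 and 2 arrays and those of the other 4 genes on 0. Just inside the rule were the dimmest probes of Mrpl51 and Mrps10, each detected on 4 arrays. A gene not detected by its probe may still be expressed.

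Depth and identity of the arrays bear on all of these values. The mean raw intensity ran from 297 to 499 on the null and from 295 to 467 on the wild-type arrays, and 13009 to 13910 probes were detected on an array. All 8 arrays lay on 1 chip, wild-type in its first 4 positions and null in its last 4, so position and group cannot be told apart. Whether the replicates came from different mice is not in the labels, and the p-values therefore rest on a spread between samples that could be technical. The probe for Ppargc1a did not separate the groups, with 7.30, 8.09, 8.10 and 7.43 in null and 7.35, 7.22, 7.90 and 7.98 in wild-type striatum (difference 0.12, SE 0.23, limma adjusted p = 0.937). As the deleted part of the gene is not given, the probe does not check the labels. The Y-linked and Xist probes gave a male pattern on null 1, 2 and 4 and on wild-type 2.

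The mean level of the family differed between single arrays more than between the groups. Taken as the average over genes of the deviation of an array from each gene's own mean, it was 0.08, 0.04, -0.04 and -0.05 in null and 0.09, -0.03, 0.01 and -0.09 in wild-type striatum (log2). The null mean was 0.01 ± 0.07 and the wild-type mean -0.01 ± 0.07 (SD, n = 4 each). On null 1 and wild-type 1, 52 and 51 of the 66 genes lay above their own means, on wild-type 4 only 18.

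These levels went with the brightness of the array, a split chosen after the values were seen. The 4 brighter arrays (null 2, null 1, wild-type 1 and wild-type 3, with mean raw intensities from 421 to 499) all had a higher family mean than the 4 dimmer ones (null 3, null 4, wild-type 2 and wild-type 4, from 295 to 350). Each side of the split held 2 arrays of each group. The lowest of the brighter arrays stood at 0.01 and the highest of the dimmer ones at -0.03. The large and the small subunit each showed the split, at 0.01 against -0.03 and 0.01 against -0.04.

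By gene, 52 of the 66 had a higher mean on the 4 brighter arrays, 31 of 39 in the large and 21 of 27 in the small subunit. The share over all detected genes was 49.0%. As the split was chosen on the mean of these same genes, the count restates it and supports nothing further. The differences between brighter and dimmer arrays were largest for Mrpl24, at 0.48, Mrpl16, at 0.38, and Mrps2, at 0.37. These are 3 of the 4 genes with the widest spread. As the groups were balanced over the split, such a difference also enters the residual SD, so this overlap is no separate result. Mrps24, Mrpl1 and Mrps7 were lower on the brighter arrays, by -0.13, -0.11 and -0.11. The split was also seen without background correction, with cyclic loess, with median centring and in the authors' processed values. With cyclic loess the lowest of the brighter arrays was at -0.01 and the highest of the dimmer ones at -0.04. The arrays were already normalized to 1 distribution, and the part of brightness in these levels was not tested.

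**Figure D4:**
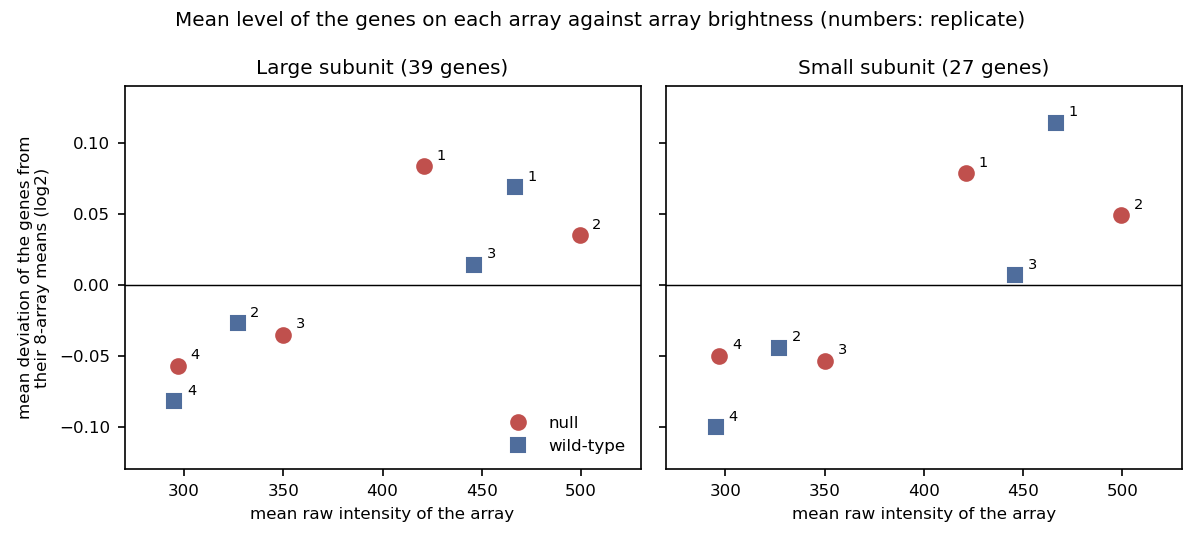
Mean deviation of the large (left) and small (right) subunit genes on each array (log2, y axis) against the mean raw intensity of that array (x axis), with null arrays as circles, wild-type arrays as squares and numbers for the replicate. In both panels the 4 brighter arrays, from 421 units upward, lie above 0 and the 4 dimmer arrays, up to 350 units, lie below 0, with 2 arrays of each group on either side.

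Other families were counted by brightness too. A higher mean on the brighter arrays was found for 39 of 55 cytosolic ribosomal protein genes (70.9%) and 29 of 33 complex I genes (87.9%). It was found for 52 of the 66 (78.8%) here and for 49.0% of all detected genes. Of the lists described below, it was found for 3 of 6 mitochondrial ribosomal proteins under other symbols and 6 of 16 assembly factors. For translation factors it was 6 of 12, for tRNA synthetases 8 of 16, for mitochondrial DNA replication and transcription 8 of 13, and for regulators 1 of 7. The median difference between brighter and dimmer arrays was 0.11 both for complex I and for the 66 genes. In neither the cytosolic ribosome nor complex I did the mean level part the brighter from the dimmer arrays without overlap. As the split was chosen on the mean of the 66 genes, this sets no contrast between the families. For the 55 cytosolic ribosomal protein genes the lowest of the brighter arrays was at -0.09 (wild-type 1) and the highest of the dimmer ones at 0.11 (null 3). For the 33 complex I genes those values were -0.03 (wild-type 3) and 0.04 (null 4).

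Beside the mitochondrial ribosomal proteins, the other genes of the same pathway were counted in the same fit, with 0 genes of any list past an adjusted p of 0.05. A further 6 proteins of the mitochondrial ribosome go by other symbols, and 3 of them were higher and 3 lower in null, with a median of 0.02. Chchd1 differed by 0.16 (SE 0.12), Dap3, a GTP-binding protein of the small subunit, by -0.11 (SE 0.12), and Ptcd3 by 0.10 (SE 0.13).

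Factors that assemble the ribosome or modify its RNA had a median of -0.10, with 6 of 16 higher and 10 lower in null. Rpusd4, which makes pseudouridine in mitochondrial RNA, averaged 7.32 ± 0.22 in null and 7.67 ± 0.04 in wild-type striatum (SD, n = 4 each). All its null arrays lay below all wild-type arrays, with a difference of -0.34 (SE 0.13, unadjusted p = 0.0216, limma adjusted p = 0.698). The share of genes with null below wild-type without overlap was 2.75% over all genes. Ybey, a ribonuclease that the array names A130042E20Rik, differed by -0.26 (SE 0.13), and Ddx28, an RNA helicase, by -0.24 (SE 0.14).

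Mitochondrial translation factors had a median of -0.01, with 6 of 12 higher and 6 lower. The 3 with the smallest p were Tsfm at -0.29 (SE 0.12, unadjusted p = 0.0372, limma adjusted p = 0.707), Tufm at -0.27 (SE 0.15, unadjusted p = 0.0984) and Gfm1 at -0.32 (SE 0.18, unadjusted p = 0.109). Tsfm is the exchange factor of Tufm, the factor that brings tRNA to the ribosome, and Gfm1 moves the ribosome along the message. Of 16 mitochondrial tRNA synthetases and related enzymes, 8 were higher and 8 lower, with a median of -0.04. Pars2 differed by -0.37 (SE 0.17, unadjusted p = 0.0465, limma adjusted p = 0.712), Lars2 by -0.32 (SE 0.16) and 2010003O18Rik by -0.15 (SE 0.11).

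Genes of mitochondrial DNA replication and transcription had a median of -0.01, with 6 of 13 higher and 7 lower. Elac2, which processes tRNA ends, differed by 0.17 (SE 0.13), Tefm, an elongation factor of mitochondrial transcription that the array names 1110002N22Rik, by -0.14 (SE 0.12), and Ssbp1, which binds single-stranded mitochondrial DNA, by 0.29 (SE 0.26). Genes of the mitochondrial genome itself were not analysed here.

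Of 7 regulators of nuclear genes for mitochondria, 2 had a higher and 5 a lower mean in null, with a median of -0.11. Ppargc1b, the paralogue of Ppargc1a, differed by -0.22 (SE 0.14), Nrf1 by -0.20 (SE 0.14), and the GABP subunits Gabpb1 and Gabpa by -0.23 (SE 0.15) and -0.11 (SE 0.13). Nfe2l2 differed by 0.22 (SE 0.14) and Esrra, which encodes ERRα, by -0.04 (SE 0.22). In each of these 7 genes, Ppargc1a included, the groups overlapped.

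As families of like size, complex I had 23 of 33 genes higher in null with a median of 0.12, and the cytosolic ribosome 47 of 55 with a median of 0.16, where 48.5% of all genes were higher. Both lists were taken by symbol alone (Nduf, and Rpl or Rps followed by a digit, leaving out Rps6k genes). Single members, such as Ndufaf1 and Rps19bp1, therefore need not be subunits. Of the 33 Nduf genes, 4 had an unadjusted p under 0.05, Ndufa6 at 0.38, Ndufb2 at 0.29, Ndufa4 at 0.29 and Ndufb4 at 0.30, and in the cytosolic ribosome 1 of 55 did, Rps14 at 0.27, against 6.96% of all genes. Next in the cytosolic ribosome were Rpl34 at 0.35 (SE 0.16) and Rps3 at 0.32 (SE 0.15). No test of a difference between these families and the mitochondrial ribosome was made.

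**Figure D5:**
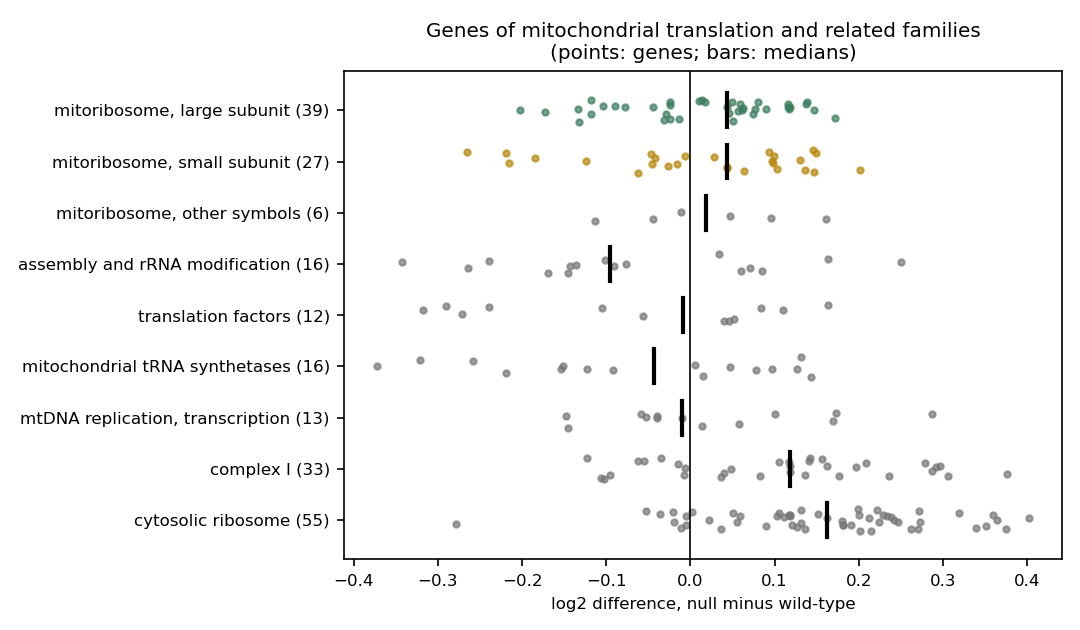
Difference between null and wild-type (log2, x axis) of each gene (points) in the 2 subunits and in related lists, with the number of genes in brackets and the median as a bar. The bars of both subunits lie at 0.04, that of the assembly factors at -0.10, and those of complex I and the cytosolic ribosome at 0.12 and 0.16.

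The promoter features were set beside the differences without a test. Genes with the ETS motif had a median difference of 0.06 and those without it -0.01. Genes with the YY1 motif had a median of -0.07 and those without it 0.04. For the 4 genes with an ERR motif it was 0.06 against 0.03 for the rest, and for the 20 genes with a divergent partner -0.001 against 0.06. Whether the motif groups differ was not tested. Of the 20 partners, 16 were measured, among them Hira, the partner of Mrpl40, at 0.46 (SE 0.24) and Sars2 at 0.13 (SE 0.14). Mrpl46 and Mrps11, which share a start region, differed by -0.08 (SE 0.12) and -0.03 (SE 0.12).

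Markers of cell types, some of which differed in mean between the groups, were set beside these values. Medium spiny neurons had 11 detected markers, all with lower means in null, with a median of -0.30, and their mean deviation ran from -0.53 to 0.10 on the null and from 0.02 to 0.33 on the wild-type arrays. All 5 detected markers of cortical excitatory neurons were higher in null, with a median of 1.34, and ran from -0.31 to 1.86 on the null and from -2.03 to 0.33 on the wild-type arrays. All 9 oligodendrocyte markers were higher in null, with a median of 0.33, from -0.08 to 0.34 on the null and from -0.94 to 0.16 on the wild-type arrays. Wild-type 3 alone stood at -0.94, and wild-type 1, 2 and 4, at 0.08, 0.15 and 0.16, lay within the null range. Cholinergic interneurons had 6 detected markers, all lower in null (median -0.45), and the 6 endothelial markers were all lower in null (median -0.16). The unadjusted limma p was under 0.05 for 4 of 6 cholinergic, 3 of 11 medium spiny and 2 of 5 cortical markers. It was so for 1 of 9 astrocyte, 1 of 9 oligodendrocyte and 1 of 6 endothelial markers, against 6.96% of all genes. The groups did not overlap for 2 cholinergic, 1 medium spiny and 1 oligodendrocyte marker, against 4.25% of all genes. No marker passed an adjusted p of 0.05. Of 9 astrocyte markers 7 were higher and 2 lower in null (median 0.17), of 7 microglial markers 5 were higher and 2 lower (median 0.02), and of 3 parvalbumin interneuron markers 1 was higher and 2 lower (median -0.18). Null 2 was highest and wild-type 1 lowest for the cortical markers. Without these 2 arrays the median difference of the 66 genes was 0.05, and the count past an adjusted p of 0.05 was 0. The part of tissue composition in the differences of single genes was not tested.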

How the data were processed

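Expression was measured in striatum on 8 Illumina arrays, 4 null and 4 wild-type, grouped and numbered by the sample titles. Per the file headers, the deposited table holds a bead intensity for each probe and array, linear and not normalized between arrays, with a detection p-value that the authors' software set against negative controls. GenomeStudio is named in the submitters' processing notes, with no version. The authors' processed intensity values gave each array the same order of probes as its raw values (rho of 1, and at most 0.936 with another array). They served as an alternative only, and how the authors normalized them was not stated.

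Intensities were background-corrected from the detection p-values, offset by 16, quantile-normalized and put on the log2 scale by the neqc function of limma 3.58.1 (R 4.3.3). Probes with a detection p under 0.05 on at least 4 of 8 arrays were kept, 13413 of 25697 (52.2%). Each was fitted with lmFit and eBayes, and the two-sided p-values for null minus wild-type were adjusted by Benjamini-Hochberg over these 13413 probes. The residual SD is that of the 8 arrays about their group means. The fit was tested on simulated data. The number of arrays limits the precision, with a median SE of 0.147 and a 95% interval of 0.322 to either side at the median.

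The members, gene lists, markers and tests were chosen with earlier results of these data known, so no list has a p-value of its own, and medians and counts stand beside those of all genes. Values are given for the 7 genes of each subunit with the smallest p, the 4 with the widest spread, genes whose probes had opposite signs, genes near the detection limit, Mrps18a and Mrps30, the 3 genes with the smallest p of each related list, and every regulator. Further genes (Mrpl47, Mrps22, promoter partners, Ndufb4 and genes of the structural places) were chosen after their values were seen. Same-numbered null and wild-type arrays did not deviate together (correlations 0.09, 0, 0.23 and 0.05), so the numbers were not taken as pairs. The fit was repeated on the authors' processed values, with median centring or cyclic loess, without background correction, with other detection filters, with array weights, with sex or the replicate number as a block, and with each array left out. Counts were repeated over every kept probe and with subunits taken by structure. Array brightness as a covariate, and leaving out null 2 and wild-type 1 together, were added after seeing the data.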

Additional observations from a re-analysis of the deposited data

Results flagged for a closer look

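Of 58 sets of 4 arrays checked, each a named gene or list score within 1 group, 5 had an array far from the other 3 by Dixon's test at the 95% level, which chance alone gives in about 1 of 20 sets. Mrps24 on null 2 was the lowest null array at 11.767 (log2), and Mrps31 on wild-type 4 the lowest wild-type array at 9.654. Null 2 was the only null array within the wild-type range of Mrps24, and wild-type 4 the only wild-type array below the highest null array of Mrps31. Mrpl34 on null 3, at 8.688, was the lowest null array and the only one within the wild-type range. Mrps18b on null 2, at 8.644, was the highest null array, and Mrps25 on null 4, at 7.189, the lowest. These 5 values came from 4 arrays, and their cause was not tested.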

How the results depend on the processing

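No alternative brought any of the genes past an adjusted p of 0.05 in limma, and the adjusted p of the 26 named genes ran from 0.497 to 1 over 19 settings. Over all probes the count was 0, except 1 (Ttr) without null 4, so 0 to 1 when an array was left out. The count at an unadjusted p under 0.05, 0 of 66 in the report, was 1 with the replicate number as a block (Mrps31), 2 without background correction (Mrps31 and Mrps24), 1 with the authors' processed values, 1 without a detection filter, 1 with detection on all 8 arrays and 1 with brightness as a covariate (Mrps31 in each), 1 with array weights (Mrps24), and 0 to 2 when an array was left out (Mrps31, Mrpl4 or Mrps24). At the share over all genes in the main fit (6.96%), 4.6 of 66 genes would lie under that value, and the shares under the alternatives are not given here. Mrps31 stood at -0.34 to -0.22 and Mrps24 at 0.16 to 0.27 when an array was left out. The number of genes higher in null was 32 to 43 of 66 when an array was left out, and 50 of 93 over every kept probe. The median difference was -0.007 (without wild-type 4) to 0.062 (without wild-type 1), and 0.016 to 0.052 under the other settings, so its sign rests on wild-type 4. The large subunit median was -0.02 to 0.074 and the small subunit median 0.007 to 0.049 when an array was left out. The median of the large minus that of the small subunit was -0.036 to 0.027 when an array was left out. Of the named genes, 18 kept their sign in all settings and 8 did not, with main differences from -0.05 (Mrps30) to 0.10 (Mrps27). When an array was left out these 8 ran from -0.235 to 0.115 (Mrpl16), -0.035 to 0.086 (Mrpl43), -0.066 to 0.13 (Mrpl51), -0.104 to 0.015 (Mrps11), -0.089 to 0.035 (Mrps18a), -0.021 to 0.126 (Mrps18b), -0.143 to 0.251 (Mrps27) and -0.088 to 0.003 (Mrps30). Signs also turned with array weights for Mrpl43 (-0.013), Mrps18b (-0.022) and Mrps27 (-0.025), with sex as a block for Mrpl16 (0.058), Mrpl43 (-0.057) and Mrps27 (-0.078), and without null 2 and wild-type 1 for Mrpl16 (0.066), Mrps18b (-0.014) and Mrps27 (-0.045). The cause was not tested. Mrps31, Mrps24 and Mrpl4 kept their signs throughout. Mrps27 was dim, with means of 5.65 in null and 5.55 in wild-type striatum and a residual SD of 0.40. Mrpl35, with means of 5.77 and 5.91, had a residual SD of 0.15. The part of background in the spread of Mrps27 was not tested.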

Other observations

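Mrps24, which had the largest positive difference between null and wild-type, was lower by -0.13 (log2) on the 4 brighter arrays, where 52 of the 66 genes were higher. Mrps31 was higher there by 0.18. With brightness as a covariate, Mrps31 differed between null and wild-type by -0.275, against -0.27 without it, so the size hardly changed. The covariate was added after the values were seen, and Mrps31 had the largest difference of the 66 genes. The value with the covariate is therefore a description only and adds no evidence for a difference.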
